A study of Homo sapiens with 11 samples.

Results

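The 10 genes described here encode secreted factors and co-receptors that control blood vessel growth, together with 1 inhibitor of it, and were taken by symbol from a table of 28152 gene symbols. They are the VEGF family ligands VEGFA, VEGFB, VEGFC and PGF, the secreted proteins ANGPTL4, ANGPT1 and FGF2, the neuropilins NRP1 and NRP2, and the inhibitor THBS1. All 10 passed the count filter, as did 16653 symbols in all. RNA was sequenced from 11 tumours grown from BT-474, according to the labels a breast cancer line positive for hormone receptors and HER2, in the mammary fat pad of female athymic nude mice. Every mouse carried a slow-release estradiol pellet. In the vehicle group (6 libraries) mice received mannitol in water under the skin every 4 days. In the evexomostat group (5 libraries) they received SDX-7320, also named evexomostat, at 12 mpk on the same schedule in the same solution, and all libraries carry the time label day 33. The drug blocks MetAP2, which trims the starting methionine off newly made proteins. The comparison asked how expression in the tumours differed between evexomostat and vehicle.

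Tumour cells that outgrow their oxygen supply secrete VEGFA, which binds receptor tyrosine kinases on endothelial cells and starts the sprouting of new vessels. Transcription of VEGFA and ANGPTL4 is known to be raised by hypoxia-inducible factors, which accumulate when oxygen is low. PGF and VEGFB bind the receptor FLT1, VEGFC acts mainly through FLT4 on lymphatic vessels, and ANGPT1 activates the receptor TEK and stabilises vessels. NRP1 and NRP2 bind VEGF ligands and class 3 semaphorins, FGF2 is a heparin-binding growth factor, and THBS1 is a matrix protein that inhibits endothelial growth through CD36 and CD47. In a xenograft the vessels and the other host cells belong to the mouse.

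The promoters of NRP2 and ANGPTL4 are shown because these 2 genes had the widest range of levels among tumours, as described below. Each is the 250 bases before the transcription start in RefSeq, build GRCh38.p14, 5′ to 3′ on the gene's strand. NRP2 is at chr2:205682251-205682500 (plus strand) and ANGPTL4 at chr19:8363905-8364154 (plus strand). Capitals mark the core motif bound by hypoxia-inducible factors, ACGTG or GCGTG, searched on both strands.
ANGPTL4: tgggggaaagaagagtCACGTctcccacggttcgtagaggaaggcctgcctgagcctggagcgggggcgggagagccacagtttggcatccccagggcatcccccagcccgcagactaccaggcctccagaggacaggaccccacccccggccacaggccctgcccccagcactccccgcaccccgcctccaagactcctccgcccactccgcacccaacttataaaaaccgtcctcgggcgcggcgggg
NRP2: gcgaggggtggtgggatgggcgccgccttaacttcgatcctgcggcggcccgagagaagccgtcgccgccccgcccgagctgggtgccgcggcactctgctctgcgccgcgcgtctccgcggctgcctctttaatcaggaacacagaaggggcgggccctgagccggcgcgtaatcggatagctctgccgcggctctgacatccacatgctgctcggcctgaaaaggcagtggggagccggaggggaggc
The ANGPTL4 window held 1 match, on the minus strand, starting at base 17 counted from 1 at the 5′ end, and the NRP2 window held 0. ACGTG is also part of the motif CACGTG that other factors bind. Matches occurred in 43.1% of 27305 promoters of the same length, in 5 of the 7 genes of the 10 that matched the RefSeq table and in 15 of 18 hypoxia genes, counting the first window listed for each gene. PGF has another window in that table, which held 1 match. A match is a description of the sequence, and 0 matches says only that these letters are not in the window.

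Library totals were 23992505 to 39249329 counts under vehicle and 22808033 to 32093792 under evexomostat. In vehicle replicate 001 the top 100 genes took 23.9% of all counts, against at most 17.9% in the other 10 libraries, and some values below are also given without it. Markers of the labelled line were low: ERBB2, the HER2 gene, averaged 53.3 CPM (counts scaled to library size, here after TMM normalisation), its amplicon neighbour GRB7 0.300 CPM, ESR1 0.286 CPM and PGR 0.0654 CPM, while KRT8 averaged 333 CPM. The libraries are therefore called by their label only. Each library is 1 tumour. The labels do not say that the tumours came from separate mice, so p-values measure only the spread between these samples.

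None of the 10 genes differed between evexomostat and vehicle tumours at an adjusted p under 0.05 in edgeR's quasi-likelihood test, against 0.606% of all genes tested (0.432% lower and 0.174% higher). At an unadjusted p under 0.05 there was 1 of 10, NRP2, against 13.4% of all genes, and by DESeq2 the number past an adjusted p of 0.05 was also 0. The groups overlapped in every one of the 10 genes, whereas they did not overlap in 2.97% of genes tested. The log2 fold change was below 0 in 9 of 10, against 55.4% of all genes, with a median of -0.24 beside -0.04 over all genes tested. In bulk tumour RNA, fewer cells of a type and less RNA per cell cannot be told apart.

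**Figure D1:**
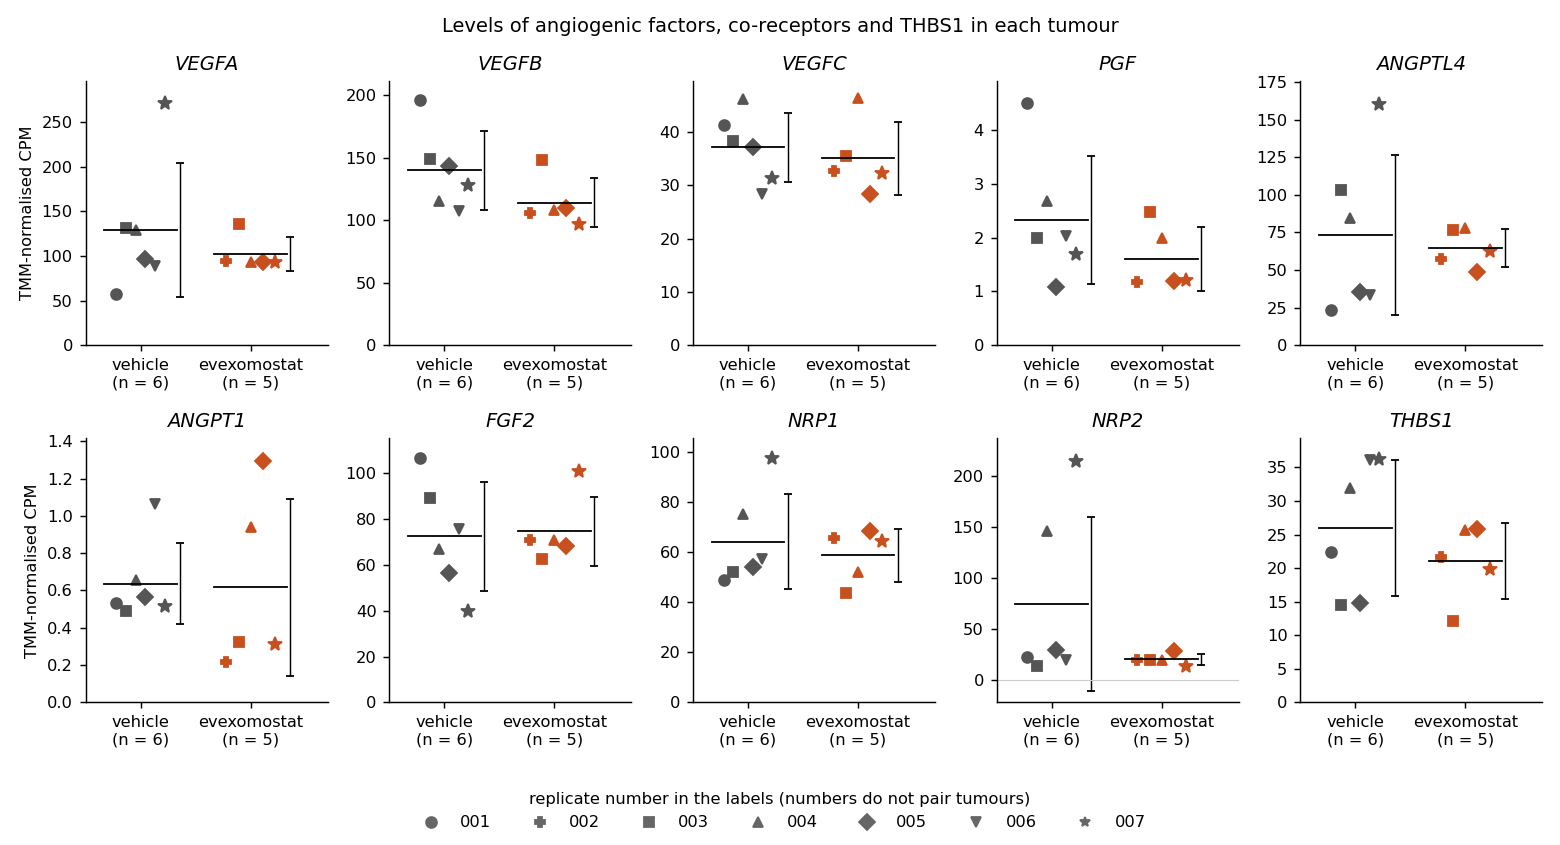
Level of each gene in each tumour, in TMM-normalised CPM on linear axes with 0 marked; horizontal lines are group means, vertical bars SD, and symbols give the replicate number in the labels. NRP2 reached 146 and 214 CPM in vehicle replicates 004 and 007 and stayed at or below 29.3 CPM in the other tumours, and VEGFA and ANGPTL4 were more spread under vehicle than under evexomostat.

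VEGFA, the main inducer of vessel sprouting, was at 57.0 CPM in the lowest vehicle tumour (replicate 001), at a median of 113 CPM and at 271 CPM in the highest (replicate 007). In evexomostat replicates 002, 003, 004, 005 and 007 it was at 94.0, 136, 93.7, 93.0 and 92.6 CPM. Thus 4 of the 5 evexomostat tumours lay almost on one level, while the vehicle tumours extended both below and above all of them. Group means were 129 ± 74.9 CPM (SD, n = 6) and 102 ± 19.1 CPM (SD, n = 5), a log2 fold change of -0.34 (edgeR adjusted p 0.711, SE 0.31). Its size and sign rested on single tumours: it was -0.49 without vehicle replicate 001 and 0.019 without vehicle replicate 007.

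VEGFB, a relative with weaker effects on vessel growth, had the highest mean level per length of the 10. Its lowest, median and highest vehicle values were 108, 136 and 196 CPM, the highest being vehicle replicate 001, and the evexomostat tumours were at 106, 148, 108, 110 and 97.4 CPM in the order above. Evexomostat replicate 003, which was the highest of its group for VEGFA, was also the highest for VEGFB. Its log2 fold change came to -0.30 (edgeR adjusted p 0.482, SE 0.17), and -0.17 without vehicle replicate 001. VEGFC, the lymphatic ligand, had the smallest SD of log2 CPM of the 10 genes over all 11 tumours, 0.25. Under evexomostat VEGFB (0.23) and VEGFA (0.24) had smaller SDs than VEGFC (0.26). Under vehicle without replicate 001 VEGFB (0.20) had a smaller SD than VEGFC (0.27). VEGFC ranged from 28.4 to 46.2 CPM under vehicle and from 28.5 to 46.3 CPM under evexomostat, with a log2 fold change of -0.08 (edgeR adjusted p 0.885, SE 0.16). The ranges of both groups were nearly the same.

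PGF, the placental growth factor, was scarce, with 36 to 94 counts per library. It was at 1.08, 2.01 and 4.51 CPM in the lowest, median and highest vehicle tumour and at 1.18, 2.47, 1.99, 1.19 and 1.21 CPM under evexomostat. The highest value was again that of vehicle replicate 001. The log2 fold change of -0.53 (edgeR adjusted p 0.581, SE 0.36) became -0.24 without that library.

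ANGPTL4, a secreted protein that inhibits lipoprotein lipase and acts on vessel permeability, varied 6.82-fold among vehicle tumours and 1.60-fold among evexomostat tumours. In vehicle replicates 001, 003, 004, 005, 006 and 007 it was at 23.5, 103, 84.8, 35.2, 33.6 and 160.3 CPM. In evexomostat replicates 002, 003, 004, 005 and 007 it was at 57.4, 76.3, 77.6, 48.6 and 62.8 CPM. All evexomostat values lay in the gap between the 3 low and the 3 high vehicle tumours. The means were 73.4 ± 53.1 CPM (SD, n = 6) and 64.5 ± 12.4 CPM (SD, n = 5), and its log2 fold change came to -0.19 (edgeR adjusted p 0.902, SE 0.42). The difference in mean log2 CPM had the opposite sign, 0.12, with an exact two-sided permutation p of 0.812. ANGPT1, the vessel-stabilising ligand of TEK, was close to the detection limit at 7 to 39 counts per library, with a log2 fold change of -0.05 (edgeR adjusted p 0.980, SE 0.45). FGF2 was the 1 gene of the 10 with a fold change above 0. It was at 40.0, 71.2 and 107 CPM in the lowest, median and highest vehicle tumour and at 70.9, 62.6, 70.9, 68.5 and 101 CPM under evexomostat, a log2 fold change of 0.05 (edgeR adjusted p 0.961, SE 0.22). Its lowest value was in vehicle replicate 007, the tumour in which VEGFA and ANGPTL4 were highest.

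NRP1, a co-receptor for VEGFA, was at 49.0, 52.2, 75.1, 53.9, 57.2 and 97.7 CPM in the vehicle tumours in the order of their replicate numbers, and at 65.5, 43.5, 51.9, 68.2 and 64.6 CPM in the evexomostat tumours. Its log2 fold change came to -0.13 (edgeR adjusted p 0.847, SE 0.19). Vehicle replicates 004 and 007 were the 2 highest tumours of all 11.

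NRP2, a co-receptor for VEGFC and semaphorins, separated the same 2 tumours from all others. In vehicle replicates 001, 003, 004, 005, 006 and 007 it was at 22.4, 13.8, 146, 29.3, 19.8 and 214 CPM. Under evexomostat it was at 19.6, 19.9, 19.5, 28.5 and 13.9 CPM, within the range of the other 4 vehicle tumours. Replicates 004 and 007 together held 80.9% of the summed vehicle CPM. The means were 74.3 ± 85.1 CPM (SD, n = 6) and 20.3 ± 5.24 CPM (SD, n = 5), with a log2 fold change of -1.87 (SE 0.68, unadjusted p 0.016, edgeR adjusted p 0.242). The exact two-sided permutation p on log2 CPM was 0.238. Leaving out vehicle replicate 001 gave -2.06 (edgeR adjusted p 0.0910). Without vehicle replicate 007 the log2 fold change was -1.19, without vehicle replicate 004 it was -1.56, and without both it was -0.07 (edgeR adjusted p 0.939), the last chosen after the values were seen. Scaled to transcript length, the ratio of NRP2 to NRP1 was 1.94 at its highest under vehicle, with a median of 0.441, and 0.190 to 0.404 under evexomostat. In the authors' deposited table NRP2 has a log2 fold change of -1.78 and an adjusted p of 0.111, and the other 9 genes have an adjusted p of 1 there.

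The summed level of 14 fibroblast and pericyte markers was 2179 CPM in vehicle replicate 004, the highest of all 11 tumours, and 702 CPM in vehicle replicate 007, against 511 to 1457 CPM in the other vehicle tumours and 618 to 1186 CPM under evexomostat. COL3A1 and COL1A1 were the most abundant of the 14, at means of 591 and 166 CPM, and 0 of the 14 were at or below 3 counts in every library. COL3A1 alone was at 1751 CPM in vehicle replicate 004. By mean log2 CPM of the 14 markers evexomostat replicate 005 was highest, at 4.02, with vehicle replicates 004 and 007 at 3.74 and 2.60. The part of other cells in the NRP2 levels was not tested.

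THBS1, the inhibitor, was at 14.5, 27.1 and 36.3 CPM in the lowest, median and highest vehicle tumour and at 21.7, 12.1, 25.7, 25.9 and 19.9 CPM in the evexomostat tumours. Vehicle replicates 003 and 005 and evexomostat replicate 003 were the lowest, so low values occurred in both groups. The means were 26.0 ± 10.1 CPM (SD, n = 6) and 21.1 ± 5.65 CPM (SD, n = 5), a log2 fold change of -0.30 (edgeR adjusted p 0.716, SE 0.28). Per length, VEGFA exceeded THBS1 by 5.38 to 19.9 times under vehicle and by 7.90 to 24.8 times under evexomostat, and the ranges overlapped.

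**Figure D2:**
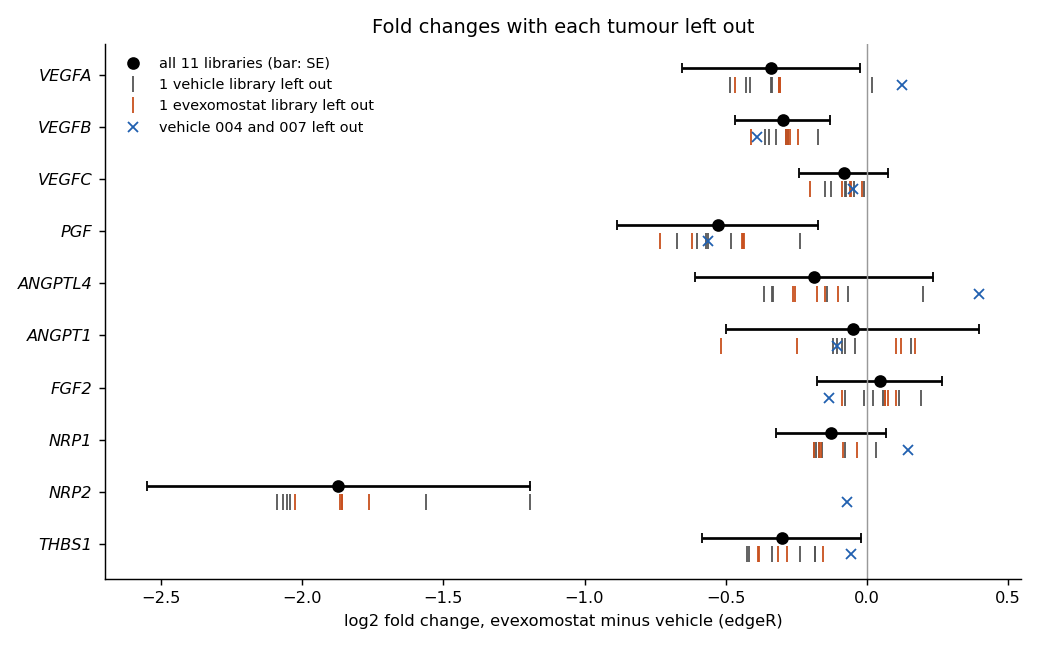
Log2 fold change (evexomostat minus vehicle, edgeR) of each gene over all 11 libraries, with its SE, and with single libraries left out. NRP2 moved from -1.87 to -0.07 without vehicle replicates 004 and 007, and VEGFA, ANGPTL4 and NRP1 lay above 0 without these 2 tumours.

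Levels were compared between genes per kilobase of the longest coding transcript in GENCODE release 29. Over all 11 tumours VEGFB was highest at 92.9 ± 21.1 CPM per kilobase (SD, n = 11), followed by ANGPTL4 at 36.9 ± 20.6 and VEGFA at 33.0 ± 15.9, which did not differ beyond their spread. VEGFC was at 17.5 ± 3.09, and FGF2 (10.9 ± 2.84), NRP1 (10.5 ± 2.58) and NRP2 (7.47 ± 9.99) overlapped in level. THBS1 was at 3.05 ± 1.08 and PGF at 1.04 ± 0.516 CPM per kilobase. ANGPT1 was lowest at 0.144 ± 0.0773 CPM per kilobase. With the median transcript length VEGFA came before ANGPTL4, VEGFA at 106 and ANGPTL4 at 100.3 CPM per kilobase, so the order of these 2 depends on the isoform length assumed. With that length NRP1 (24.6) also came before VEGFC (17.5), NRP2 (17.0) and FGF2 (14.0), so the order of these genes depends on it too. VEGFA stayed below VEGFB per length in every library with the longest transcripts, where the ratio was 0.113 to 0.822, but reached 1.88 times VEGFB in a vehicle tumour with median lengths.

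The spread between tumours was larger under vehicle than under evexomostat in 8 of the 10 genes, measured as the SD of log2 CPM, against 81.2% of all genes. Without vehicle replicate 001 it was larger in 7 of 10, against 63.1% of all genes, so these counts lie near the background. For single genes the SDs were 1.65 and 0.36 for NRP2, 1.09 and 0.28 for ANGPTL4, and 0.75 and 0.24 for VEGFA under vehicle and evexomostat. Without vehicle replicate 001 the vehicle SDs of these 3 were 1.78, 0.99 and 0.64. The exceptions were VEGFC, at 0.26 in both groups, and ANGPT1, at 0.38 under vehicle and 0.99 under evexomostat. A test of the difference in spread was not made.

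Levels of VEGFA and ANGPTL4 in vehicle tumours followed those of 20 hypoxia genes, a list that includes CA9, P4HA1, BNIP3L and ANKRD37 and none of the 10 genes. The mean log2 CPM of the list was 6.00, 7.37, 6.96, 6.49, 6.20 and 7.61 in vehicle replicates 001, 003, 004, 005, 006 and 007. Over these 6 tumours Pearson's r was 0.92 for VEGFA and 0.98 for ANGPTL4, and Spearman's rho was 1 for both. The exact permutation p was 0.00278 for each of the 4 coefficients, the smallest that 6 libraries allow here, and 0.0278 after Benjamini-Hochberg adjustment over 20 relations (10 genes, in vehicle tumours and in all tumours). Without the 2 tumours farthest from the median (replicates 007 and 001), r was 0.95 for VEGFA and 0.96 for ANGPTL4. These relations were computed after the values had been seen. The share of all genes tested that reach such coefficients with this list was not computed. Whether 2 of 10 genes is more than that share is therefore not known. VEGFB, VEGFC, PGF, ANGPT1 and FGF2 had r below 0 with the list in vehicle tumours, and NRP1 and NRP2 had r of 0.67 and 0.52 (exact permutation p 0.164 and 0.278). Leaving out replicates 007 and 001, which leaves 4 of the 6 vehicle tumours, changed most of these values. The r was then above 0 for VEGFB (0.56), VEGFC (0.68), PGF (0.36) and FGF2 (0.52), and was 0.06 for NRP1 and 0.05 for NRP2. For ANGPT1 it stayed below 0, at -0.78 against -0.48 over all 6 vehicle tumours.

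In evexomostat replicates 002, 003, 004, 005 and 007 the mean of the hypoxia genes was 6.20, 5.48, 5.67, 5.65 and 5.99, overlapping vehicle replicate 001 alone. Without that library the groups did not overlap, with 6.201 in the highest evexomostat tumour and 6.205 in the lowest of the other vehicle tumours. Evexomostat replicate 003 had the lowest mean of all 11 tumours and the second highest VEGFA level. Over all 11 tumours r was 0.65 for VEGFA (permutation p 0.0420, adjusted p 0.280), with a rho of 0.39 (permutation p 0.238), and r was 0.12 without vehicle replicates 007 and 003, so the pooled relation rests on those 2 tumours. For ANGPTL4 the pooled r was 0.54 (permutation p 0.0900, adjusted p 0.300), the rho 0.38 (permutation p 0.249), and the r -0.06 without the same 2 tumours. No coefficient was computed within the 5 evexomostat tumours alone. Among them replicate 002, with the highest hypoxia mean, had VEGFA at 94.0 CPM and ANGPTL4 at 57.4 CPM. Replicate 003, with the lowest, had them at 136 and 76.3 CPM. Between these 2 tumours both genes were thus higher where the hypoxia mean was lower. Whether the relation differs between the groups was not tested.

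**Figure D3:**
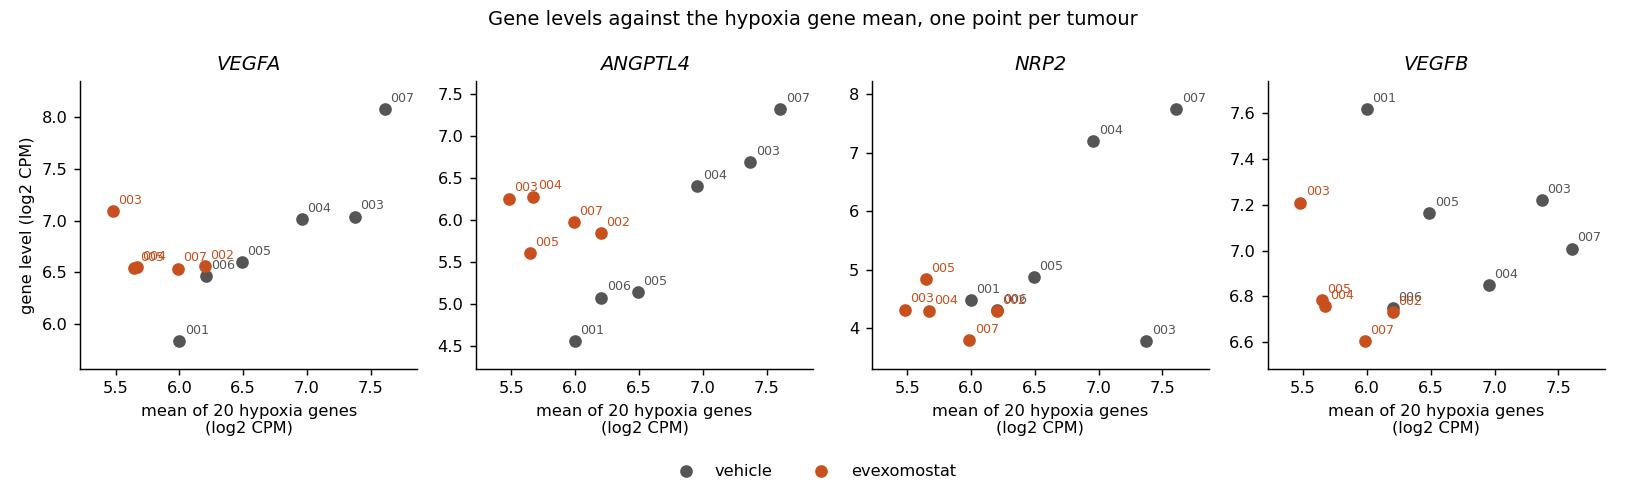
Level of VEGFA, ANGPTL4, NRP2 and VEGFB (log2 CPM) against the mean log2 CPM of 20 hypoxia genes, 1 point per tumour, labelled with its replicate number. The vehicle points of VEGFA and ANGPTL4 rise together with the hypoxia mean from 6.00 to 7.61, and the evexomostat points lie at 5.48 to 6.20 on that axis.

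The hypoxia genes themselves had log2 fold changes below 0 in 20 of 20, against 55.4% of all genes, with a median of -0.87 beside -0.04 over all genes. The list was chosen with earlier results of these data known, so this count is a description and no test of the list. P4HA1, a collagen prolyl hydroxylase, fell from 128 ± 46.9 CPM (SD, n = 6) to 49.7 ± 6.19 CPM (SD, n = 5), a log2 fold change of -1.37 (edgeR adjusted p 0.0233, SE 0.23), and was the 1 gene of the 20 past the threshold, which 0.606% of all genes passed. It did not pass when any 1 evexomostat library was left out, with edgeR adjusted p of 0.0619 to 0.0901, or without vehicle replicates 004 and 007 (0.0709). CA9, a carbonic anhydrase, was at 27.5 ± 28.4 and 1.88 ± 1.65 CPM (log2 fold change -3.86, edgeR adjusted p 0.0663). BNIP3L and ANKRD37 had log2 fold changes of -0.92 and -1.26 (edgeR adjusted p 0.0703 and 0.0768). Without vehicle replicate 001, 12 of the 20 passed, against 5.22% of all genes. In that edgeR fit the adjusted p was 0.0233 for CA9, 0.0312 for BNIP3L and 0.0325 for ANKRD37. Without vehicle replicate 005 that of CA9 was 0.0475. VEGFA and ANGPTL4, named above as raised by hypoxia-inducible factors, had log2 fold changes of -0.34 and -0.19 beside these, and that difference was not tested.

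Of 32 other angiogenic ligands, 28 were tested and 0 passed the threshold in edgeR, while 4 were higher and 5 lower at an unadjusted p under 0.05 (background 4.82% and 8.55%). By DESeq2, 7 genes of the ligand, receptor and inhibitor lists passed, CXCL8, ADM, CCN1, ANG, FGFR2, SDC4 and COL4A3, where 3.9% of all genes did. Without vehicle replicate 001, 7 genes of these lists passed in edgeR, where 5.22% of all genes did, but they were not the same 7. FGFR2, SDC4 and COL4A3 were in both sets. CXCL8, ADM, CCN1 and ANG did not pass in that edgeR fit (adjusted p 0.0625, 0.0555, 0.0847 and 0.0999). CXCL8, an angiogenic chemokine, was at 107 ± 68.7 CPM (SD, n = 6) and 41.9 ± 15.9 CPM (SD, n = 5), a log2 fold change of -1.36 (edgeR adjusted p 0.124). ADM, a vasodilating peptide hormone precursor, was at 34.7 ± 22.6 and 11.2 ± 6.85 CPM (log2 fold change -1.62, edgeR adjusted p 0.140). CCN1, a matrix-associated integrin ligand, pointed the other way, at 57.6 ± 28.8 and 111 ± 14.5 CPM (log2 fold change 0.95, edgeR adjusted p 0.146, and 0.0364 without vehicle replicate 006). ANG, the secreted ribonuclease angiogenin, had a log2 fold change of -0.79 (edgeR adjusted p 0.197). TYMP, thymidine phosphorylase, was the most abundant of the list at a mean of 223 CPM, with a log2 fold change of -0.38 (edgeR adjusted p 0.397).

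Of 30 receptors, semaphorins and plexins, 29 were tested and 0 passed in edgeR. At an unadjusted p under 0.05, 2 were higher and 4 lower (background 4.82% and 8.55%). FGFR2, a receptor for fibroblast growth factors, was at 36.9 ± 20.6 CPM (SD, n = 6) and 14.3 ± 3.12 CPM (SD, n = 5), a log2 fold change of -1.37 (edgeR adjusted p 0.105). SDC4, a heparan sulfate proteoglycan that binds FGF2, did not overlap between groups. In this list 2 genes did not, SDC4 included, against 2.97% of all genes. SDC4 was at 199.2 to 273.6 CPM under vehicle and 138 to 197 CPM under evexomostat (log2 fold change -0.48, edgeR adjusted p 0.135). FLT4, the receptor of VEGFC, was at 19.7 ± 5.17 and 29.7 ± 3.38 CPM (log2 fold change 0.59, edgeR adjusted p 0.154). ITGAV, an integrin subunit, had a log2 fold change of -0.46 (edgeR adjusted p 0.201), and PLXNA3, a semaphorin co-receptor and the most abundant of the list at a mean of 282 CPM, one of 0.28 (edgeR adjusted p 0.763), which was 0.09 without vehicle replicate 001. Without that library the edgeR adjusted p was 0.0119 for FGFR2, 0.0340 for SDC4 and 0.0453 for ITGAV, at log2 fold changes of -1.55, -0.51 and -0.51.

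Among 24 other inhibitors, 18 were tested and 0 passed in edgeR. At an unadjusted p under 0.05, 0 were higher and 2 lower (background 4.82% and 8.55%). These were COL4A3 and COL4A1, chains of basement membrane collagen whose fragments inhibit vessel growth. COL4A3 was at 3.01 ± 2.44 CPM (SD, n = 6) and 0.813 ± 0.301 CPM (SD, n = 5), a log2 fold change of -1.89 (edgeR adjusted p 0.137), and COL4A1 at 153 ± 77.1 and 87.2 ± 15.4 CPM (log2 fold change -0.81, edgeR adjusted p 0.267). Without vehicle replicate 001 their log2 fold changes were -2.07 and -0.97, with edgeR adjusted p of 0.0337 and 0.0347. TIMP3, a metalloproteinase inhibitor that also blocks VEGF binding to its receptor KDR, had a log2 fold change of -0.57 (edgeR adjusted p 0.437), and COL4A2 one of -0.36 (edgeR adjusted p 0.660). SPARC, a matrix protein, was the most abundant at a mean of 277 CPM, with a log2 fold change of -0.24 (edgeR adjusted p 0.865) that was above 0 in some alternatives. The medians of the ligand, receptor and inhibitor lists were -0.15, -0.14 and -0.06, beside -0.04 over all genes.

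**Figure D4:**
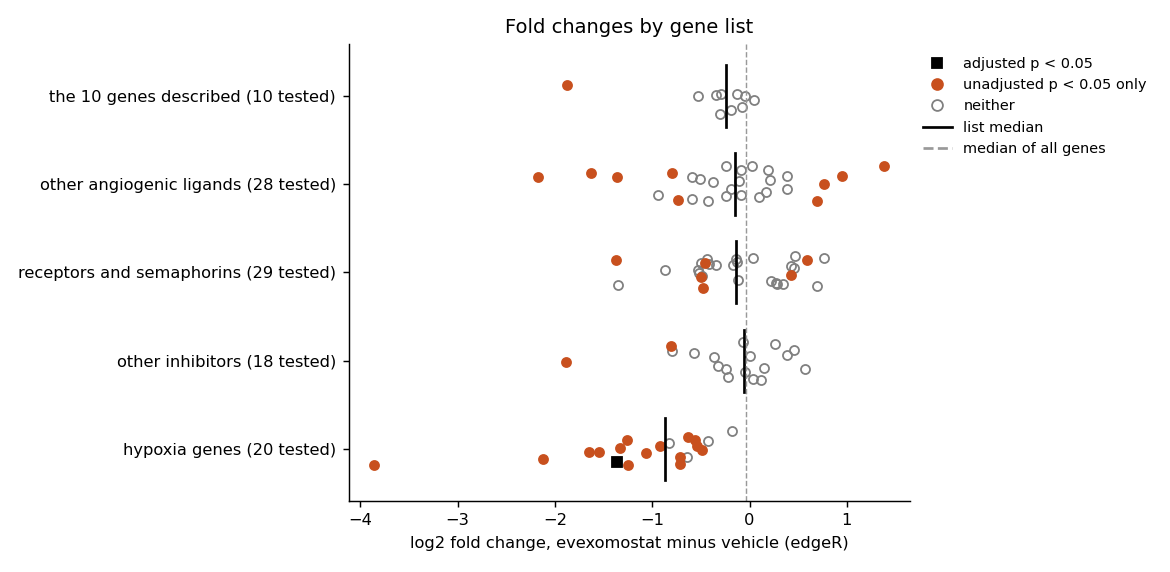
Log2 fold change (evexomostat minus vehicle, edgeR) of each tested gene by list, with list medians as bars and the median of all genes as a dashed line; filled marks have a p under 0.05. P4HA1 is the 1 gene past the adjusted threshold, and the hypoxia genes lie to the left of the other lists, with a median of -0.87.

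Marker lists of other cell types were read in the same libraries. The 18 endothelial markers summed to 72.7 to 105 CPM under vehicle and 99.2 to 121 CPM under evexomostat. By mean log2 CPM of the 18 the ranges overlapped more, at -0.008 to 0.42 and 0.26 to 0.46. Of 14 tested, 9 had a log2 fold change above 0 and 5 below 0, with a median of 0.03. CDH5, the endothelial cadherin, was at or below 3 counts in every library, while ENG and EGFL7 averaged 55.5 and 18.0 CPM. The 12 leukocyte markers, led by CD68 and LYZ at means of 38.7 and 27.7 CPM, summed to 84.2 to 125 and 91.3 to 105 CPM, with AIF1 at or below 3 counts throughout. Of 6 platelet markers, PF4, PPBP and GP9 were at 0 everywhere, and GP1BA and ITGA2B averaged 1.52 and 1.22 CPM. The 8 adipocyte markers, led by PLIN4 and LPL at means of 21.8 and 2.28 CPM, summed to 10.7 to 66.0 and 8.52 to 26.4 CPM. The highest sum was in vehicle replicate 007, where ANGPTL4, a gene adipocytes also express, was highest too. PLIN4 made up most of that sum, at 63.4 CPM, while LPL was at its lowest there, at 0.662 CPM. By mean log2 CPM of the 8 markers vehicle replicate 006 was highest, at -0.87, against -1.12 in vehicle replicate 007. ADIPOQ was at 0 in every library, and LEP and CIDEA at or below 3 counts. The 12 skeletal muscle markers, led by ACTA1 and MYH1 at means of 17.3 and 11.5 CPM, summed to 7.99 to 29.5 CPM under vehicle and 10.4 to 553 CPM under evexomostat. Of 8 tested, 7 were higher at an unadjusted edgeR p under 0.05 (background 4.82%) and 0 passed the adjusted threshold. The sum was highest in evexomostat replicate 005, where ANGPT1 was at its maximum of 1.29 CPM, from 39 counts. The fibroblast and pericyte markers also had their highest mean log2 CPM there, at 4.02. MYL1 was at or below 3 counts in every library. The part of these cells in the levels of the 10 genes was not tested.

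The genes most like each member were taken by the correlation of deviations from the group means over the 11 libraries, as a description, since the libraries share depth and composition and at least 13067 genes were searched. For NRP2 they were CASP8, an initiator caspase (r 0.98), and MCC (r 0.97), which both had their maximum in vehicle replicate 007, at 132 and 87.5 CPM. For VEGFA they were the non-coding RNA PAX8-AS1 (r 0.97) and PC, pyruvate carboxylase (r 0.96). For ANGPTL4 they were CP, ceruloplasmin (r 0.92), and NECAP1 (r 0.92). CP was at 2.91 to 38.2 CPM under vehicle and 1.55 to 2.81 CPM under evexomostat. VEGFB was nearest SRPK2 and KMT2E (r 0.93 each) and PGF nearest ZP3 (r 0.96) and SPIN2B (r 0.95), all 4 highest in vehicle replicate 001 within their group. VEGFC was nearest NECAP2 (r 0.79) and CXCL8 (r 0.77), NRP1 nearest PRMT3 and KCNJ8 (r 0.94 each), FGF2 nearest CAPSL (r 0.97) and EVA1A (r 0.92), and ANGPT1 nearest INAVA (r 0.86) and TXNIP (r 0.85). THBS1 was nearest POP1 (r 0.93) and PIGW (r 0.90). POP1, a subunit of RNase P and RNase MRP, rose under evexomostat with a log2 fold change of 0.90 (edgeR adjusted p 0.0313).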

How the data were processed

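One deposited file gives raw counts for each gene symbol, and the deposited RPM file gives the same counts scaled to each library's total. The authors' deposited comparison table holds log2 fold changes, p-values and group means. Per the submitters' processing notes the tools include bcl2fastq 2.17, STAR 2.7.5c, Subread, featureCounts and edgeR, and the builds GRCh37 and hg19. How mouse reads were treated, the annotation and the strand setting are not given in the sources used here, so reads of similar mouse genes, and of overlapping or antisense genes, could have been counted on a named gene. The promoter windows come from another build than the counts.

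Libraries were grouped by title. Counts were filtered with filterByExpr (minimum count 10, minimum total 15), scaled with TMM and compared with edgeR 4.0.16 (quasi-likelihood test, R 4.3.3), with Benjamini-Hochberg adjustment over 16653 genes and a threshold of 0.05. Each SE is the fold change over the root of its F statistic. Expression levels are CPM after TMM, and log2 CPM uses a prior count of 2. At these depths 3 counts, the level below which a gene is treated as undetected, are 0.0764 to 0.132 RPM, for counting error only. Exact permutations over all libraries used 462 splits, so 0.00216 is the smallest p they give. They were not adjusted over the 10 genes alone. The correlations over all 11 tumours used 100000 permutations. The edgeR fit was tested on simulated data, and DESeq2 1.42.0 and limma 3.58.1 served as alternatives. None of the 55 pairs of libraries were duplicates: the smallest chi-square divided by its degrees of freedom was 15.5.

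The 10 genes and all lists were chosen with earlier results of these data known. Named genes were the 10, the 4 with the smallest p and the most abundant of each pathway list, the 4 smallest p of the hypoxia list, the 2 most abundant markers per list, and for each of the 10 the 2 most correlated genes of mean log2 CPM at least 1.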

Additional observations from a re-analysis of the deposited data

Results flagged for a closer look

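In 20 groups of libraries (10 genes in each of 2 groups), the highest or lowest library was compared with the rest of its group by the gap to its nearest neighbour over the range. This singled out 5 values, all at the high end. About 1 would be singled out by chance if values were normally distributed and genes independent. That was not examined for these CPM values, and no share over all genes is given, so the 5 are a description. In vehicle replicate 007 VEGFA reached 271 CPM, with the next vehicle tumour at 131 CPM. It was also at 136 CPM in evexomostat replicate 003, against 94.0 CPM in the next. VEGFB was also highest in evexomostat replicate 003, at 148 CPM against 110.2 CPM. ANGPT1 was at 1.06 CPM in vehicle replicate 006, against 0.659 CPM, from 34 counts. FGF2 was at 101 CPM in evexomostat replicate 007, against 70.9 CPM. NRP2 was not among them, because 2 vehicle tumours were high together.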

How the results depend on the processing

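None of the 10 genes passed an adjusted p of 0.05 in any of their 23 or 24 alternatives, and the number past it was 0 with every single library left out. The 101 genes called over all genes became 649 with DESeq2, 1059 with sample quality weights in limma-voom, 376 in edgeR's exact test on unscaled library sizes and 6 without vehicle replicates 004 and 007, and ranged from 1 to 865 with 1 library left out, the 865 without vehicle replicate 001. Of these calls 28.7% were higher under evexomostat, 40.0% with upper quartile scaling and 58.1% and 55.9% with limma-trend on RPM at pseudocounts of 1 and 0.1, where the median over all genes shifted by 0.11 and 0.14. The pathway lists, at 0, had 7, 13 and 5 genes past the threshold in the first 3 of these settings, and 0 to 7 with 1 library left out (7 without vehicle replicate 001, 1 without vehicle replicate 006). The hypoxia list, at 1, had 9, 13 and 5, 2 with no count filter, 0 without vehicle replicates 004 and 007, and 0 to 12 with 1 library left out. The cause was not tested.

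Both groups contain replicates numbered 003, 004, 005 and 007. Correlations of the deviations within these pairs were -0.27, 0.07, 0.05 and -0.10. Pairs of different number were not compared, so whether the numbers pair tumours was not tested. A replicate block on these 8 libraries gave 107 genes in all, 2 in the pathway lists and 9 in the hypoxia list, which did not include P4HA1 (edgeR adjusted p 0.0565). With no replicate block, those 8 libraries gave 733, 6 and 14, with P4HA1 among the 14 (edgeR adjusted p 0.0148). ANGPT1 was at 0.18 with the replicate block and 0.36 without it, and SPARC at 0.43 and 0.19.

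Other reversals of sign, none past the threshold, were as follows. Without vehicle replicates 004 and 007 VEGFA was at 0.13, ANGPTL4 at 0.40, NRP1 at 0.15 and FGF2 at -0.13. With limma-trend at pseudocounts of 1 and 0.1 VEGFC was at 0.013 and 0.013, ANGPTL4 at 0.21 and 0.22 and SPARC at 0.064 and 0.065. VEGFC and ANGPT1 were at 0.016 and 0.037 in the exact test, ANGPTL4 at 0.12 in limma-voom and SPARC at 0.28 with quality weights. With 1 library left out VEGFA ranged from -0.49 to 0.019, ANGPTL4 from -0.36 to 0.20, ANGPT1 from -0.51 to 0.17, NRP1 from -0.19 to 0.032 and FGF2 from -0.087 to 0.19. The correlation with the hypoxia genes in vehicle tumours was 0.88 to 0.98 for VEGFA and 0.97 to 0.99 for ANGPTL4 with 1 library left out, with an exact permutation p of 0.0167 each, and 0.93 and 0.99 on log2(RPM + 1). The low counts of PGF and ANGPT1 limit what could be detected.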
